A study of Saccharomyces cerevisiae with 12 samples.

Results

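The comparison described here set S288c carrying extra copies of MSS11 against Σ1278b carrying the same extra copies. Its members were the 2 arrays that the sample titles name for these cultures, of 12 arrays in all, and every S. cerevisiae probe set on them was used, 5498 probe sets for 5449 genes. The same strains with the empty vector, 1 array each, gave the strain difference without extra MSS11, so that 4 arrays entered and the pair with extra MSS11 and the pair with the empty vector had no array in common. Each of the 4 groups was a single culture, there was no replicate on either side, and the differences are given as values without a test.

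The Σ1278b strain had the ura3-52 allele and hisG insertions in place of TRP1, LEU2 and HIS3 (trp1Δ::hisG, leu2Δ::hisG and his3Δ::hisG). Its mating type is MATα in the labels, while the study's strain list gives a strain of these alleles as MATa, so the sources conflict. The S288c strain was BY4742, which that list gives as MATα with the alleles his3Δ1, leu2Δ0, lys2Δ0 and ura3Δ0. The labels call both "wild type" apart from the plasmid. In both strains MSS11 was carried by a multicopy vector selected through URA3, and the controls held the vector without insert. The S288c background carries flo8-1, a defective allele of the activator gene FLO8, whereas Σ1278b has a working FLO8. Cultures were grown at 30 °C in 5 ml of synthetic dropout medium with 2% glucose. The medium was supplemented according to the needs of each strain, so medium and strain cannot be told apart where the supplements differed. The labels give the harvest as early stationary phase and the study's methods as mid-exponential phase. The remaining 8 arrays of the series were all of Σ1278b. They were a first wild type set and cultures that overexpressed FLO11, overexpressed FLO8 or lacked MSS11. They are used below for the range over Σ1278b arrays, for the difference between replicates and for another wild type control. That range therefore takes in genotypes other than wild type.

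Mss11 is a transcription factor that acts with Flo8 at the promoters of adhesin genes. The adhesins, or flocculins, are large glycosylated proteins anchored in the cell wall. Flo1, Flo5 and Flo9 bind sugars on neighbouring cells and make them clump, Flo10 has weaker activities of both kinds, and Flo11 lets cells invade agar, form filaments and stick to plastic. Σ1278b is used as the invasive and filamentous laboratory strain and S288c, the reference strain, does neither under standard conditions. The TIR, DAN and PAU families are small mannoproteins of the wall, many of them made when oxygen is scarce or the temperature is low.

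Signals are given on the log2 scale of the deposited intensities, and every difference is S288c minus Σ1278b unless another direction is named. A probe set was called where the difference was at least 1, which is 2-fold, and the brighter array lay above its background, set at the 95th percentile of the fission yeast probe sets of that array (4.77 to 4.88 on the 4 arrays). The 4 arrays had medians of 10.72 to 10.81, and 97.5 to 98.5% of the probe sets lay above background. As a yardstick for a 2-fold difference, any pair of replicates in the 2 replicated Σ1278b groups (6 pairs) differed that far at 0 to 7 of the 5498 probe sets. The second Σ1278b wild type, which is the one used here, differed that far from the arrays of the first set at 78 to 94. The 2 wild type sets also appear to differ in vector marker, so the latter count is not of culture spread alone. URA3 read 14.73 in the second set, against a median of 8.70 over the 10 Σ1278b arrays, and LEU2 13.04 against 14.75. The array's probes were designed on reference sequence, so a sequence change or a missing gene in Σ1278b cannot be told apart from a lower transcript level.

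The plasmid gene itself was measured first. MSS11 had a signal of 8.22 in Σ1278b and 8.49 in S288c with the empty vector, and of 12.29 and 11.45 with the plasmid. The plasmid arrays were far above their controls in both strains, and Σ1278b reached the higher level, by 0.83. FLO8 read 10.34 and 10.18 in Σ1278b and 9.92 and 9.53 in S288c without and with extra MSS11, which is transcript and says nothing of the defective allele. The marker genes set the strains apart in both pairs: LYS2, needed for lysine synthesis, was at 3.70 and 4.21 in S288c, below background, and at 13.47 and 12.54 in Σ1278b. HIS3 was at 13.23 and 12.97 in S288c and at 7.90 and 7.98 in Σ1278b, and LEU2 at 7.06 and 7.40 against 13.04 and 13.02. The LEU2 level of Σ1278b does not follow from the leu2 deletion that its label states. Which part of HIS3 its probes cover is not given in the sources used here, so the signal in S288c cannot be read against his3Δ1.

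With extra MSS11 in both strains, 220 probe sets were higher in S288c (4.0% of those measured) and 135 were lower (2.46%). With the empty vector in both, 293 were higher (5.33%) and 180 lower (3.27%). The strain difference of a probe set was much alike in both pairs: Pearson's r was 0.87 across 5498 probe sets, which share their strains and are not independent replicates, and the medians of all differences were -0.09 and -0.04. A total of 270 probe sets were called in the same direction in both pairs (4.91% of those measured), which is 57.1% of the calls with the empty vector and 76.1% of those with extra MSS11. These are described as remaining. A further 202 were called with the empty vector alone (3.67%) and are described as disappearing, 84 were called with extra MSS11 alone (1.53%) and are described as appearing, and 1 was called in opposite directions.

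**Figure D1:**
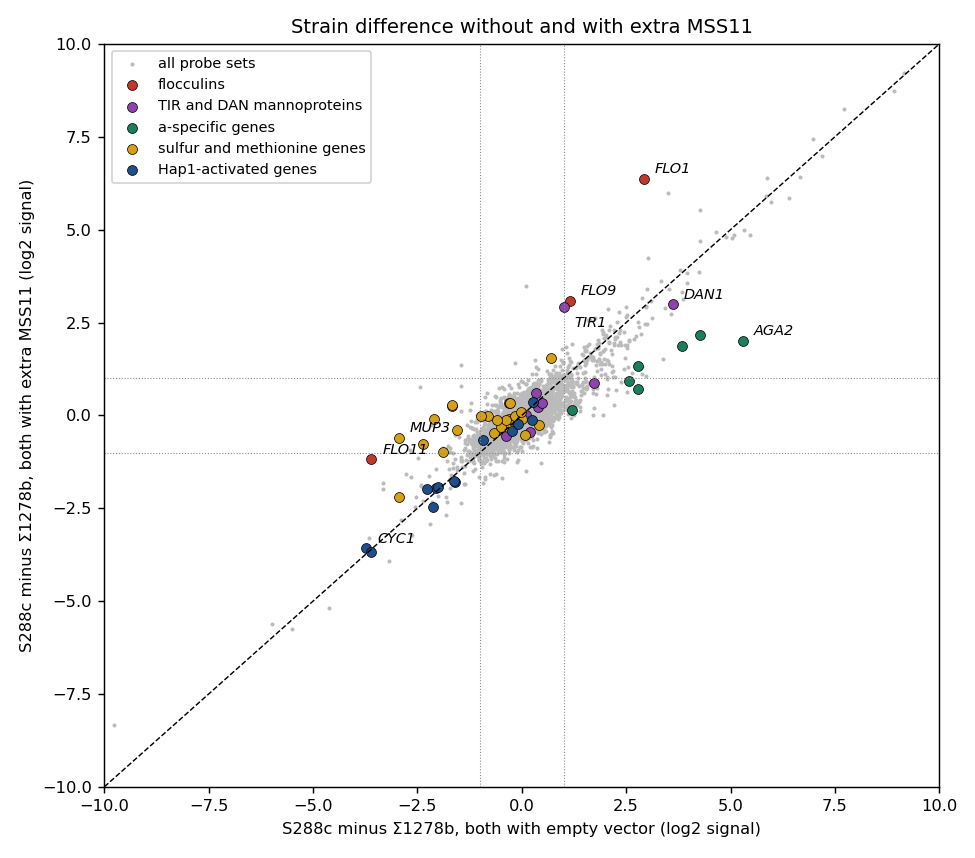
Strain difference with the empty vector in both strains (x axis) against the strain difference with extra MSS11 in both (y axis), S288c minus Σ1278b in log2 signal, 1 point per probe set and 1 array per strain and plasmid. Dotted lines mark a difference of 1 and the dashed line equal differences; FLO1 lies above the dashed line at 2.92 and 6.37, and FLO11 at -3.60 and -1.18.

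Crossing the threshold was often a small step. Of the 202 that disappeared, 192 kept the sign of their difference and 137 still differed by at least 0.5 in that direction. Their median absolute difference was 1.21 with the empty vector and 0.66 with extra MSS11. The change in a strain difference was therefore counted as well: at 104 probe sets (1.89%) the difference with extra MSS11 and the difference with the empty vector were at least 1 apart, and these are called moved. They were 27 of the 270 that remained, 44 of the 202 that disappeared, 8 of the 84 that appeared, the 1 that turned and 24 called in neither pair. This count depended on the Σ1278b control: with the mean of the first wild type set in its place 212 probe sets moved (3.86%), of which 66 were among the 104. That set also appears to carry another vector marker, so control culture and marker cannot be told apart there. Of the 104, 47 moved toward higher signal in S288c (0.855%) and 57 toward lower (1.04%). In 36 the plasmid array and its control were at least 2-fold apart in S288c alone, in 12 in Σ1278b alone, in 10 in both strains and in 46 in neither.

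The flocculin genes had the largest median move of the 40 gene lists examined, 2.18 toward S288c, and 2.43 with the first wild type set as control. Of the 4 measured, FLO9 on a probe set shared with related genes, 3 moved, all toward S288c, and all 3 remained called. Of all genes, read from 1 probe set each, 1.89% moved, and 0.844% of all genes moved toward S288c. FLO5 had no probe set listed. The study itself names these genes from arrays of this design, so the list is not independent of them. With extra MSS11, 2 of the 4 were higher in S288c (4.0% of all genes) and 1 was lower (2.46%), the same counts as with the empty vector (5.32% and 3.27%), and the median difference was 1.70, against 0.42 with the empty vector and -0.09 and -0.04 over all genes.

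FLO1, the main flocculation gene, read 3.96 in Σ1278b and 6.88 in S288c with the empty vector, and 6.40 and 12.77 with extra MSS11. The Σ1278b control was below background, so that pair gives S288c at least 3.98-fold higher. With extra MSS11 both arrays were above background and S288c was 82.8-fold higher, a difference of 6.37. All 10 Σ1278b arrays, between 3.88 and 6.40, lay below both S288c arrays, and the upper end of that range was the array with extra MSS11. FLO1, FLO5 and FLO9 are near-identical over long stretches, and how far signal crossed between them was not tested here. By qPCR with gene-specific probes the study did not find FLO5 and FLO9 regulated in the way its arrays implied. It names as the likely reason that the array's probe sets do not separate these genes well.

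The probe set of FLO9 is shared with related genes, so its values cannot be assigned to FLO9 alone. It gave 8.70 in Σ1278b and 9.85 in S288c with the empty vector, and 9.99 and 13.08 with extra MSS11, so the strain difference was 1.15 and then 3.09. The S288c control lay within the range of the 10 Σ1278b arrays, from 8.43 to 9.99, and only the S288c array with extra MSS11 stood above it.

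FLO11, the adhesin of invasive growth, went the other way at first. It read 11.64 in Σ1278b and 8.03 in S288c with the empty vector, 12.1-fold lower in S288c, and 14.27 and 13.10 with extra MSS11, 2.26-fold lower. The strain difference was -3.60 and then -1.18, so most of it was gone, and what remained was just past the threshold. The S288c array with extra MSS11 exceeded the Σ1278b control by more than a log2 unit and lay inside the span of the 10 Σ1278b arrays, whose median was 13.23. Those arrays include FLO11, FLO8 and MSS11 overexpression and an MSS11 deletion, so their span and median are not those of the wild type.

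FLO10 differed little between the strains in either pair. It read 8.23 in Σ1278b and 7.92 in S288c with the empty vector, and 8.89 and 9.21 with extra MSS11. Neither difference, -0.31 and 0.32, reached the threshold. The order of the 4 flocculins within S288c carrying extra MSS11 was not read, because levels of different probe sets are not comparable.

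**Figure D2:**
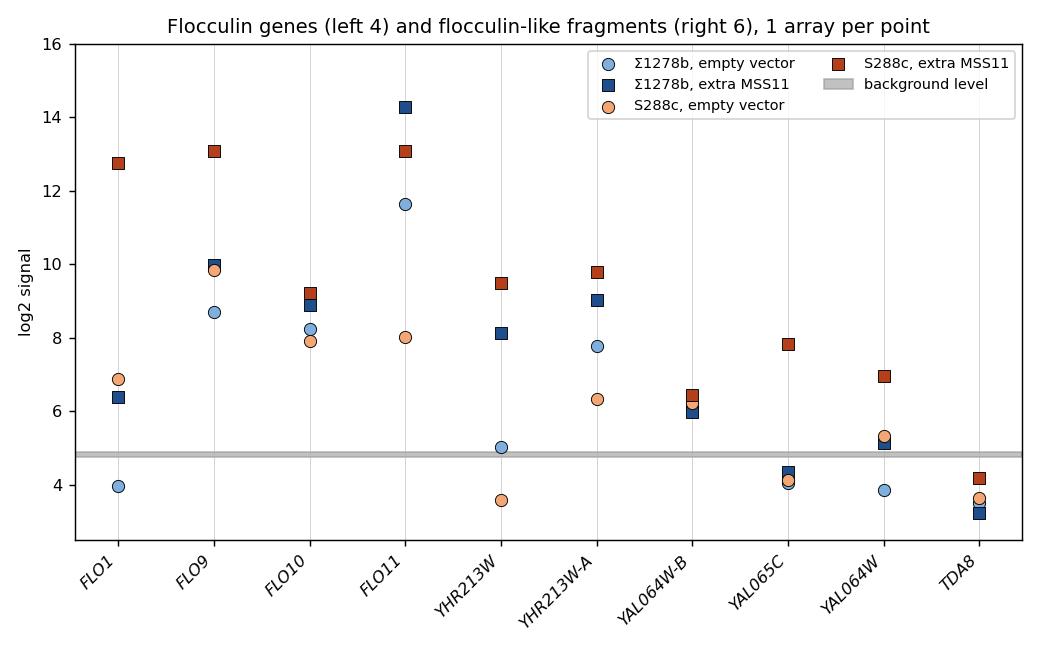
Log2 signal of the 4 flocculin genes and 6 flocculin-like fragments (x axis), 1 array per point; circles are the empty vector, squares extra MSS11, blue Σ1278b and orange S288c, and the grey band is the background level. In S288c with extra MSS11, FLO1 and FLO9 are the highest of their 4 arrays, at 12.77 and 13.08, while FLO11 is highest in Σ1278b with extra MSS11, at 14.27.

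Open reading frames that resemble pieces of flocculin genes lie near the chromosome ends, and 6 of the 9 listed had a probe set. With extra MSS11, 3 of the 6 were called, all higher in S288c (4.0% of all genes). With the empty vector 1 was higher and 2 were lower (5.32% and 3.27% of all genes). Their median difference was 1.16, against 0.10. YHR213W was the single probe set of the array whose strain difference turned: it read 5.04 in Σ1278b and 3.58 in S288c with the empty vector, and 8.12 and 9.48 with extra MSS11. The first of these differences is -1.46 as measured, but the S288c control was below background, and the fold that the data bound is only 1.21. The study's gene list gives YHR213W and YAR062W the same change in each strain, so this probe set may also read YAR062W. Both plasmid arrays were well above both controls.

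YHR213W-A, a neighbour of YHR213W, had the same pattern in weaker form. It read 7.78 and 6.33 with the empty vector and 9.02 and 9.81 with extra MSS11 in Σ1278b and S288c, so a difference of -1.45 gave way to 0.78. YAL065C was at 4.04, 4.36 and 4.12 in Σ1278b without and with extra MSS11 and in the S288c control, all below background, and at 7.84 in S288c with extra MSS11, at least 8.04-fold above Σ1278b. YAL064W was higher in S288c in both pairs, by 1.48 and 1.83, with its Σ1278b control below background. These fragments share sequence with the flocculin genes, and signal from the genes themselves cannot be told apart from their own.

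Among the TIR and DAN mannoproteins the strains were closer. The list holds 9 measured genes, some of which the study names. With extra MSS11, 2 of the 9 were higher in S288c and none lower, against 3 and none with the empty vector, where 4.0% of all genes were higher with extra MSS11 and 5.32% with the empty vector. The median difference was 0.34 against 0.39. TIR1, a wall mannoprotein induced by cold and low oxygen, was the only one that moved. It read 8.67 in Σ1278b and 9.68 in S288c with the empty vector, and 9.84 and 12.75 with extra MSS11, so that a difference at the threshold, 1.01, became one of 2.91.

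TIR2 took the opposite course. It read 8.81 and 10.54 with the empty vector and 13.36 and 14.22 with extra MSS11 in Σ1278b and S288c, and the difference went from 1.73 to 0.86. Both plasmid arrays were far above both controls, and the Σ1278b array lay more above its control (4.55) than the S288c array did (3.68). DAN1, which is silent in air and made without oxygen, remained far apart: 4.92 and 8.53 with the empty vector, and 8.88 and 11.87 with extra MSS11. S288c was 12.3-fold and 7.97-fold higher. The Σ1278b control stood barely above its background of 4.88, so the first of these folds rests on a value near the floor. By qPCR the study detected DAN1 transcript only in the strains with extra MSS11, which differs from the S288c control signal here.

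TIR3 and TIR4 did not differ by 2-fold between the strains in either pair, although the plasmid arrays of both strains were above their controls. TIR3 read 9.49 and 12.83 in Σ1278b and 9.11 and 12.27 in S288c without and with extra MSS11, and TIR4 read 7.97 and 10.26 against 8.36 and 10.49. TIP1, DAN4, PAU23 (also named DAN2) and PAU24 (also named DAN3) differed by 0.60 or less with extra MSS11.

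Of the 13 seripauperins measured, 5 were higher in S288c with extra MSS11 and none lower, where 4.0% of all genes were higher and 2.46% lower. Their median difference was 0.48, against 0.20, and none moved by as much as 1. PAU18 (7.72 in Σ1278b and 11.12 in S288c with extra MSS11) and PAU4 (7.65 and 10.43) differed most, by 3.40 and 2.78, and both differed nearly as much with the empty vector. For 11 of the 13 the probe set is shared between members of this family, so they are not separate observations.

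**Figure D3:**
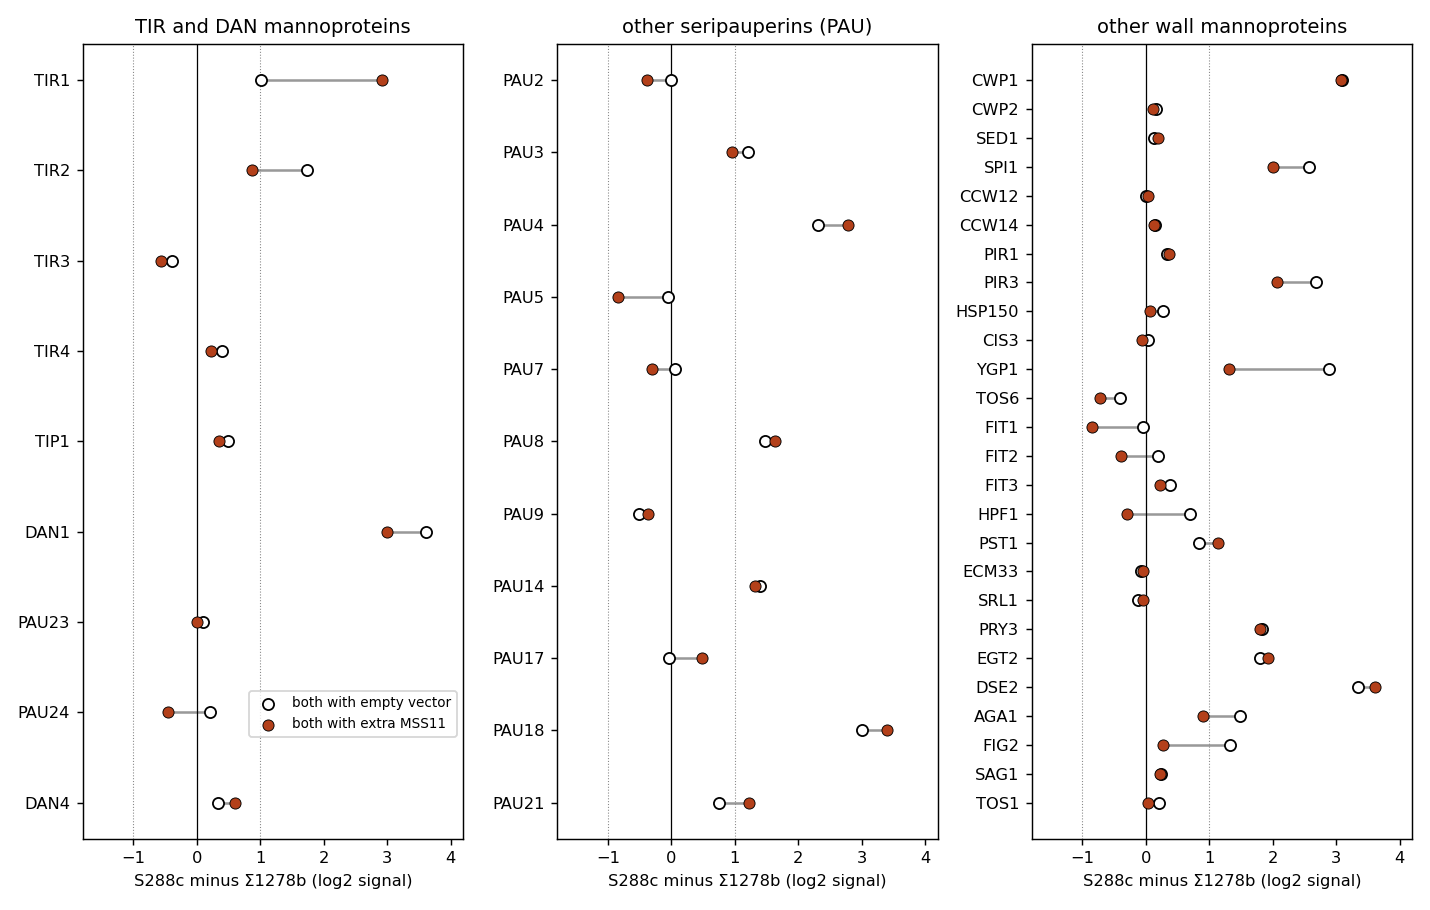
Strain difference (x axis, S288c minus Σ1278b in log2 signal) of each measured wall mannoprotein gene (y axis), with the empty vector in both strains (open) and extra MSS11 in both (filled), 1 array per strain and plasmid; dotted lines mark a difference of 1. TIR1 goes from 1.01 to 2.91, TIR2 from 1.73 to 0.86 and YGP1 from 2.89 to 1.31, while CWP1 stays at 3.09 and 3.07.

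The other wall mannoproteins mostly kept their strain differences. Of 26 measured, 8 were higher in S288c with extra MSS11 (4.0% of all genes) and none lower. With the empty vector 9 were higher (5.32% of all genes) and none lower, and 7 were called in both. CWP1, a mannoprotein of the birth scar, read 9.54 and 12.63 with the empty vector and 10.67 and 13.75 with extra MSS11 in Σ1278b and S288c. It was higher with the plasmid in each strain by nearly the same amount, and the strain difference of 3.09 was still 3.07. PIR3, a wall protein linked to glucan, remained at 2.06 after 2.68, and SPI1, a stress-induced wall protein, at 2.01 after 2.57.

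YGP1, a secreted glycoprotein made as glucose runs low, was one of the 2 members that moved. It read 11.45 and 14.33 with the empty vector and 13.13 and 14.45 with extra MSS11 in Σ1278b and S288c, so the difference was 2.89 and then 1.31. The S288c arrays were nearly level and the Σ1278b plasmid array was above its control. FIG2, a mating adhesin, was the other, at 1.32 and then 0.27. HPF1, a haze-protective mannoprotein, read 9.63 and 10.32 with the empty vector and 12.40 and 12.09 with extra MSS11, never 2-fold apart between the strains. The abundant wall proteins CCW12, CWP2 and SED1 differed by 0.03, 0.12 and 0.19 with extra MSS11.

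Genes that part the daughter cell from its mother after division differed between the strains whether or not MSS11 was added. All 10 of those called, of 11 measured, were higher in S288c in both pairs and none moved. The share of all genes called higher was 4.0% with extra MSS11 and 5.32% with the empty vector. The median difference of the list was 1.82 with extra MSS11 and 1.89 with the empty vector. For all 11 both S288c arrays lay above all 10 Σ1278b arrays, as they did at 15.5% of all genes. DSE1, a daughter-specific gene, read 8.57 and 8.06 in Σ1278b and 12.37 and 11.98 in S288c without and with extra MSS11. DSE2 and EGT2, wall glucanase-like genes, differed by 3.61 and 1.92 with extra MSS11, the chitinase gene CTS1 by 2.65 and the glucanase gene SCW11 by 2.94. AMN1, an antagonist of mitotic exit, was itself higher in S288c, by 1.89 and 1.45. DSE2, EGT2 and PRY3 also stand among the wall mannoproteins, and CTS1 and SCW11 among 27 wall remodelling enzymes. Of those 27, 3 were called, all higher in S288c, the other being SKN1 at 1.46.

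Regulators of filamentous growth were mixed. Of 21 measured, which include MSS11 and FLO8, 3 were higher in S288c and 3 lower with extra MSS11 (4.0% and 2.46% of all genes), against 1 and 4 with the empty vector (5.32% and 3.27%). YAP6, a stress-related activator, read 10.22 and 10.47 in Σ1278b and 7.81 and 8.59 in S288c, and its difference remained at -1.89. NRG2, a glucose-dependent repressor of invasive growth, remained at -1.12. HMS1, which the study names as responding to MSS11 in Σ1278b, appeared as lower in S288c, at -1.25 after -0.43. RME1, which activates FLO11, was past the threshold with extra MSS11 (1.44) and just short of it without (0.99). PHD1, an activator of filament formation, was past it with extra MSS11 (1.13) and short of it without (0.67). SFL1, a repressor of flocculin genes, was -1.22 and then -0.76, and MIT1, an activator of them, -1.18 and then -0.33. In the mating and filamentation kinase pathway 2 of 17 were called, both lower in S288c, where 2.46% of all genes were. They were the signalling mucin MSB2 (-1.19) and the kinase FUS3 (-1.15), both called with the empty vector too.

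The a-specific genes moved as a group. They are expressed in MATa cells and kept silent in MATα cells, where the alpha-specific genes are expressed. All 7 were higher in S288c with the empty vector and 4 of 7 with extra MSS11 (5.32% and 4.0% of all genes), with medians of 2.79 and 1.34. All 7 moved down, where 1.05% of all genes did. With the first wild type set as control 6 of the 7 moved down. STE2, the receptor for alpha factor, read 7.86 and 8.55 in Σ1278b and 12.14 and 10.71 in S288c without and with extra MSS11. AGA2, the binding subunit of a-agglutinin, read 5.18 and 6.90 against 10.47 and 8.92. In S288c the plasmid array was below its control at all 7 genes, and in Σ1278b it was above its control at 6 of 7.

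BAR1, the protease that degrades alpha factor, was at 9.17 in the S288c control and 7.56 with extra MSS11, against 6.38 and 6.86 in Σ1278b. Its difference of 2.79 became 0.71, and STE6, the exporter of a-factor, ended at 0.14. For 6 of the 7 both S288c arrays lay above all 10 Σ1278b arrays, as they did at 15.5% of all genes. The linear signals of the 7 genes, summed and then put on the log2 scale, gave 9.61 and 10.14 in Σ1278b and 13.16 and 11.75 in S288c. Over the 10 Σ1278b arrays this sum was 9.54 to 10.14. None of the 4 alpha-specific genes was called in either pair. Their sum, formed in the same way, was between 15.5 and 15.7 on all 4 arrays. The brightest probe sets weigh most in such sums, and levels of different probe sets are not comparable. The mating type of the Σ1278b strain was therefore not read from them. Whether the S288c control culture held cells of another mating type or state was not tested.

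Of 21 genes induced by mating pheromone, 14 were higher in S288c with the empty vector (5.32% of all genes). With extra MSS11, 5 were higher and 1 lower (4.0% and 2.46% of all genes), and the median went from 1.32 to 0.66. The difference disappeared at 10 of the 21, against 3.67% of all probe sets. Of the 21, 7 moved down and 1 up, where 1.05% and 0.844% of all genes did. FIG1, a membrane protein of mating, read 5.38 and 6.46 in Σ1278b and 7.75 and 7.36 in S288c, and PRM6 read 6.77 and 7.51 against 9.29 and 8.14. Both differences, 2.37 and 2.52 with the empty vector, ended under the threshold, at 0.90 and 0.62. PRM2, a pheromone-regulated membrane protein, remained at 2.73. PRM10, with a difference of -0.12 and then -1.25, appeared as lower in S288c. The list takes in ASG7 of the a-specific list and the wall genes FIG2 and AGA1.

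**Figure D4:**
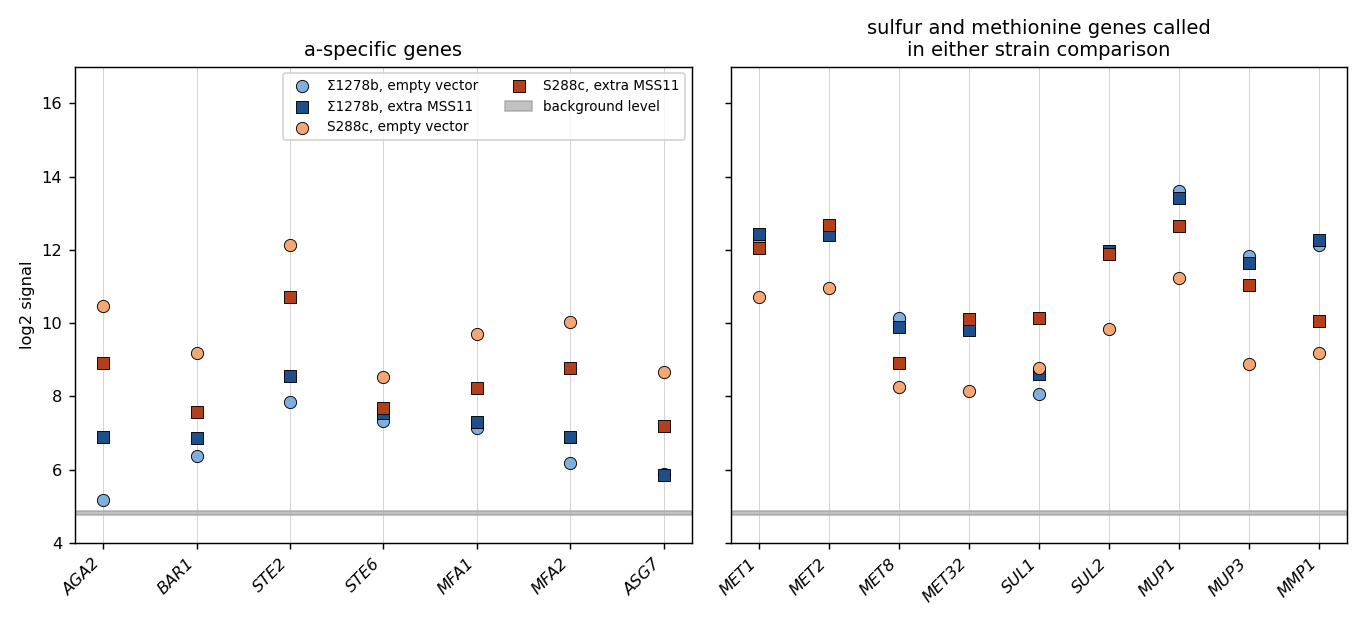
Log2 signal (y axis) of the 7 a-specific genes (left) and of the 9 sulfur and methionine genes called in either pair (right), 1 array per point; circles are the empty vector, squares extra MSS11, blue Σ1278b, orange S288c, and the grey band is the background. In S288c the a-specific genes are lower with extra MSS11 than without at all 7, and SUL2 stands at 11.88 with it and 9.83 without, next to 11.97 and 11.92 in Σ1278b.

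Among sulfur assimilation and methionine genes the difference disappeared at 7 of 24, against 3.67% of all probe sets. With the empty vector 8 of the 24 were lower in S288c and none higher (3.27% and 5.32% of all genes), and with extra MSS11 1 was lower and 1 higher (2.46% and 4.0%). The median went from -0.55 to -0.12, and 6 of the 24 moved, all 6 upward, where 0.844% of all genes moved up. With the first wild type set as control 5 moved, all upward, 4 of them among the 6. MUP3, a methionine permease, read 11.84 and 11.64 in Σ1278b and 8.90 and 11.03 in S288c without and with extra MSS11. SUL2, a sulfate permease, read 11.92 and 11.97 against 9.83 and 11.88. In both genes the S288c control alone stood apart and the other 3 arrays lay close together.

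MET2, which makes O-acetylhomoserine, and MET32, a regulator of the pathway, had the same form, at -1.68 in both and then 0.26 and 0.28. MMP1, which takes up S-methylmethionine, remained lower, at -2.19 after -2.95, and SUL1, the other sulfate permease, appeared as higher, at 1.54 after 0.71. Outside the list, OPT1, a transporter of glutathione and other small peptides, read 10.66 and 10.42 in Σ1278b and 8.48 and 10.16 in S288c. YKL068W-A, an uncharacterized reading frame, had the largest move among the genes that disappeared: 11.62 and 10.98 in Σ1278b, 9.18 and 11.75 in S288c, a difference of -2.44 and then 0.78.

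Lysine synthesis genes also drew closer, here from the Σ1278b side. Of 11 measured, 5 were lower and 1 higher in S288c with the empty vector (3.27% and 5.32% of all genes), and 3 were lower with extra MSS11 (2.46%). The move was seen at 3 of the 11 with the control used here, where 0.844% of all genes moved up. It was seen at 1 of the 11 with the first wild type set, where 3.86% of all probe sets moved. LYS2, below background on both S288c arrays, was 1 of the 3. LYS9, a late enzyme of the pathway, read 14.48 and 12.72 in Σ1278b and 11.81 and 11.78 in S288c, so that its difference went from -2.68 to -0.94. CTP1, a mitochondrial citrate carrier listed with them, read 13.73 and 11.85 against 10.42 and 10.02 and remained lower at -1.83. LYS2 is deleted in S288c, which needs lysine in its medium, and was at least 212-fold lower.

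Several groups of metabolic genes kept all or most of their strain difference. Among 13 genes, HAP1 itself and genes activated by Hap1, the heme-dependent regulator, 8 were lower in S288c with extra MSS11 (2.46% of all genes). The same number were lower with the empty vector (3.27% of all genes), and all 8 were called in both. The median was -1.79 and -1.63, and none moved. CYC1, cytochrome c, read 14.13 and 14.11 in Σ1278b and 10.41 and 10.53 in S288c, and CYB5, cytochrome b5, 13.83 and 13.86 against 10.21 and 10.17. HAP1 itself did not differ by 2-fold, with 11.06 and 11.43 on the plasmid arrays. In the respiratory chain 6 of 32 were lower with extra MSS11 and 8 with the empty vector (2.46% and 3.27% of all genes), and none was higher. The median was -0.41 after -0.63, and 2 differences disappeared. The NADH dehydrogenase NDE1 was at -2.30 with extra MSS11. In ergosterol synthesis 6 of 24 were lower with extra MSS11 and 7 with the empty vector (2.46% and 3.27% of all genes), and none was higher. The median was -0.68 after -0.77, and 2 differences disappeared while 1 appeared. HMG1, the rate-limiting reductase, was at -2.46 with extra MSS11 and ERG5 at -1.78, and both are also in the Hap1 list.

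In the iron regulon 7 of 21 were lower in S288c and 1 was higher with extra MSS11 (2.46% and 4.0% of all genes). With the empty vector 4 were lower and 1 higher (3.27% and 5.32%), and the median went from -0.05 to -0.47. HMX1, the heme oxygenase, read 11.72 and 12.01 in Σ1278b and 7.10 and 6.82 in S288c, 36.5-fold lower with extra MSS11. The iron transport genes FET3 (-0.94 and then -1.83), FTR1 (-0.84 and -1.21) and ENB1 (-0.87 and -1.65) crossed the threshold by less than 1 log2 unit. FRE4, a reductase for iron chelates, was the only member that moved, from 0.47 to -1.27: the Σ1278b plasmid array, at 8.56, was above the other 3, which lay between 7.12 and 7.60.

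Stress and storage carbohydrate genes were higher in S288c in both pairs, 10 of 20 with extra MSS11 (4.0% of all genes) and 9 with the empty vector (5.32%). Their medians were 1.05 and 0.89, and none was lower. HSP12, a membrane-protecting stress protein, read 10.92 and 13.02 in Σ1278b and 14.31 and 14.54 in S288c, so its difference of 3.39 became 1.51. DDR2 was at 2.65 and then 1.15, and HSP26, a small heat shock protein, at 3.96 and then 3.55. Of 20 chaperone genes 5 were higher, among them HSP30, a plasma membrane heat shock protein, at 4.24 after 3.02, and HSP82, the inducible Hsp90, at 1.30 after 0.34. Of 128 ribosomal protein genes 1 was called, RPL4B, higher in S288c by 2.39, and of 28 ribosome biogenesis genes none, although all 28 had a negative difference (median -0.43).

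**Figure D5:**
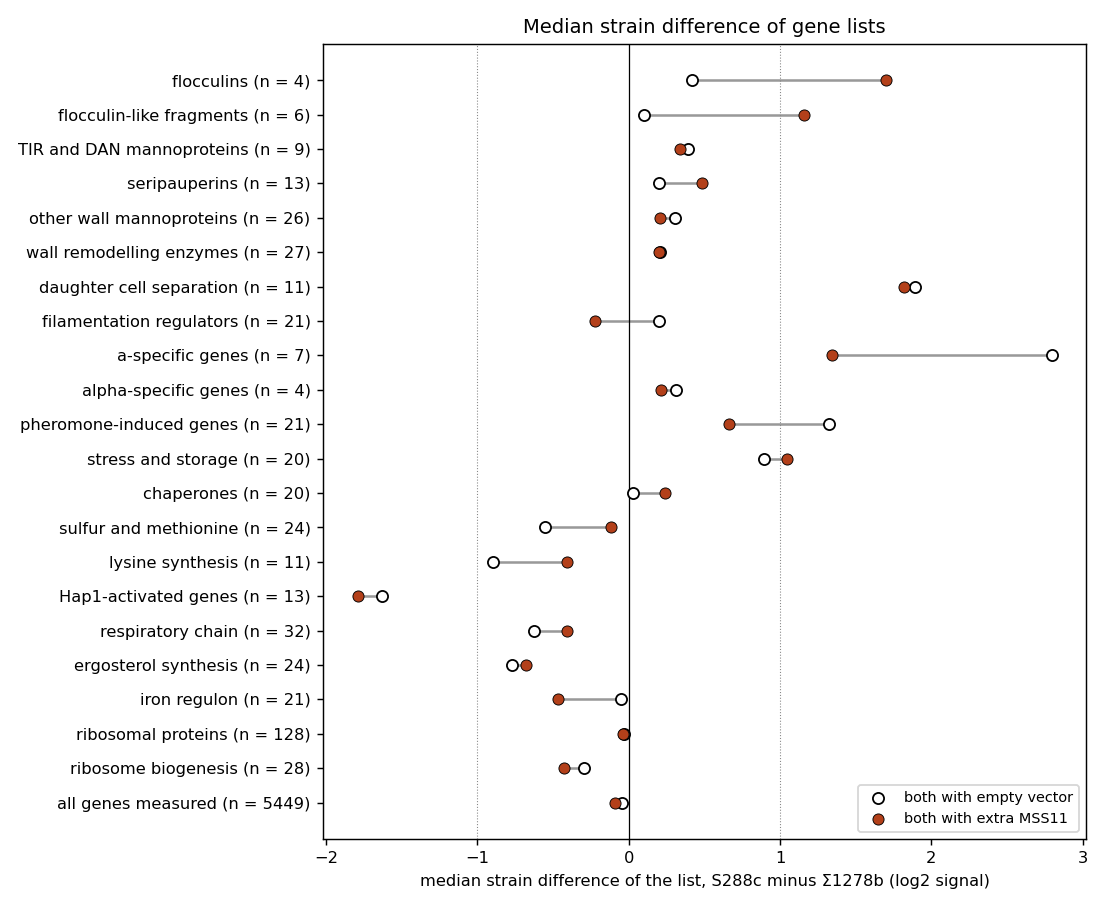
Median strain difference (x axis, S288c minus Σ1278b in log2 signal) of 21 gene lists and of all genes measured (y axis, n is the number of measured genes), with the empty vector in both strains (open) and extra MSS11 in both (filled); 1 array per strain and plasmid, and genes are not replicates. Medians of the a-specific genes (2.79 and 1.34) and the flocculins (0.42 and 1.70) lie far apart between the pairs, and those of the daughter separation genes (1.89 and 1.82) and Hap1-activated genes (-1.63 and -1.79) close together.

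Of the 15 genes with the largest difference toward S288c with extra MSS11, 13 had a Σ1278b signal below background, the exceptions being FLO1 (6.37) and HIS3 (4.99). At 32 of the 355 called probe sets the dimmer array was below background, Σ1278b in 31 of them. There the measured difference gives at most a bound. It could be formed for 31 of the 32 and was under 2-fold for 6. COS2, of a subtelomeric family, read 4.39 in Σ1278b and 13.60 in S288c with extra MSS11, at least 434-fold higher, on a probe set that related genes share. ASP3-1, for the secreted asparaginase II, was at least 8.17 log2 units higher (4.26 and 13.00), also on a shared probe set. REE1, involved in enolase expression, was at least 137-fold higher (3.69 and 11.93), and none of these 3 had a difference that moved.

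Of the 270 remaining differences, 24 were higher in S288c and below background on all 10 Σ1278b arrays, and 1, LYS2, was higher in Σ1278b and below background on both S288c arrays. Some of these genes stood side by side. Of runs of at least 3 neighbouring measured genes called in the same direction with extra MSS11 there were 8, all higher in S288c. The longest was OPT2, YPR196W, SGE1, ARR1, ARR2 and ARR3, a run of 6 that ends in the arsenic resistance cluster, where 4 of the 6 were below background on all Σ1278b arrays. ARR3, at 4.82 in S288c with extra MSS11 and with a difference of 1.03, stood at the background of that array. No bound could be formed for it. SGE1, a drug exporter, read 3.57 in Σ1278b and 10.54 in S288c with extra MSS11, and ARR1, the regulator of the cluster, 4.46 and 11.89.

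A run of 5 took in a flocculin, FLO9, on its shared probe set: YAL064W, YAL063C-A, FLO9, GDH3 and BDH2, each called in both pairs. GDH3, a glutamate dehydrogenase, was higher in S288c by 2.52 and BDH2, a dehydrogenase, by 2.93, and neither of these differences moved. The others were runs of 3: EHD3, KRS1 and ENA5; DDI3, SNO3 and SNZ3; YHL009W-A, YHL009W-B and YHL008C; YJL218W, REE1 and IMA5; ASP3-1, YLR156W and YLR157W-E; and AIF1, COS10 and YNR075C-A. ENA5, a sodium pump, has 2 probe sets, and its difference with extra MSS11 was 2.31 on the one shared with its tandem copies and 5.90 on the other, where all Σ1278b arrays were below background. YJL218W, an acetyltransferase-like gene, also moved: it read 4.28 and 4.47 in Σ1278b and 7.78 and 10.46 in S288c.

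The largest differences toward Σ1278b after LYS2 (-8.33) were those of YAR068W (-5.75), LEU2 (-5.62), HMX1 (-5.19), DAL1, the allantoinase (-3.91), CYB5 (-3.69), CYC1 (-3.58), SUE1, which acts in the breakdown of unstable cytochrome c (-3.31), and the metalloreductase FRE1 (-3.23). YAR068W, a reading frame at a chromosome end, read 12.87 and 13.08 in Σ1278b and 7.38 and 7.33 in S288c. All of these were called with the empty vector too, and of them only LYS2, below background in S288c, had a difference that moved.

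Of the genes that appeared with extra MSS11, 8 moved. They were YAL065C, FRE4 and PRM10, given above, and 5 others. FDH1, formate dehydrogenase, read 6.13 and 7.35 in Σ1278b and 6.24 and 5.87 in S288c, and PDR11, a sterol uptake transporter, had a difference of -1.68 after -0.47. In both the Σ1278b plasmid array stood above the other 3. TPO3, a polyamine exporter, was at 1.49 after 0.33, YFL051C, an uncharacterized reading frame, at 1.41 after -0.17, and YJL213W at -1.19 after -0.09.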

How the data were processed

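Biotin-labelled RNA was hybridized to Affymetrix Yeast Genome 2.0 arrays, 1 culture each. The values deposited by the authors are linear RMA intensities, one number per probe set after background correction and quantile normalization (RMA version not given in the sources used here). They were put on the log2 scale without a pseudocount, since all exceeded 0. Of 10928 probe sets, 5498 were listed under 1 S. cerevisiae gene (12 symbols updated), 1747 under genes of other species, taken as fission yeast, and 3683 under none. Gene lists used the probe set with the highest mean over the 12 arrays, since 47 genes have several, and 128 probe sets are shared between genes.

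Arrays were grouped by their labels. Differences between single arrays were taken without a test. Genes named were drawn from the manipulated and marker genes, the flocculins, fragments and TIR and DAN genes, and the runs. Others came from the 15 largest differences each way, the 10 largest moves of each class and up to 4 members of each other list. Not every gene of these sets is named, and any further gene was picked with its values in view. The comparison, its members and the 40 gene lists were chosen with earlier results of these data known. Lists are described by counts and medians only. Alternatives were other thresholds, other uses of background, median centring, renewed quantile normalization of the 4 arrays, fewer probe sets, the first Σ1278b wild type set, and limma 3.58.1 in R 4.3.3 over all 12 arrays, which takes the spread of lone arrays from the 2 replicated groups (4 residual degrees of freedom, Benjamini-Hochberg adjustment). Leaving out the a-specific and pheromone-induced genes was a setting added after the data were seen. The calls and the fit were tested on simulated data. Promoter motifs were not analysed here.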

Additional observations from a re-analysis of the deposited data

Results flagged for a closer look

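A strain difference called in opposite directions in the pairs, or plasmid arrays that went opposite ways in the 2 strains, picked out several results, with 1 array per strain and plasmid, so the difference between the strains was not tested. YHR213W, whose plasmid arrays were above their controls in both strains, was picked out because its strain difference changed sign, and it moved by 2.83. Among the a-specific genes the Σ1278b plasmid array was above its control and the S288c plasmid array below its own for AGA2 (the strain difference moved by -3.28), STE2 (-2.11), BAR1 (-2.09), MFA2 (-1.97), MFA1 (-1.63) and STE6 (-1.07). Among the wall mannoproteins the same comparison picked out PAU24 (-0.66), PAU23 (-0.10) and DAN4 (0.27), none of which was called in either pair.

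Probe sets listed under no gene were outside the main measurement. With extra MSS11, 24 of these 3683 were called between the strains, 15 higher and 9 lower in S288c, and 18 of the 24 were called in the same direction with the empty vector. Of the 1747 fission yeast probe sets, 0 were called by the same rule.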

How the results depend on the processing

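With a 1.5-fold threshold the calls with extra MSS11 numbered 975 (448 higher and 527 lower in S288c), those with the empty vector 1157, and 663 remained, 488 disappeared, 306 appeared and 6 turned. At 3-fold they numbered 168 (118 and 50) and 227, with 143, 84, 25 and 0. With both arrays required above background 0 turned. The pooled limma fit, which assumes that lone arrays vary like the replicated ones, put 2228 probe sets past an adjusted p of 0.05 with extra MSS11 (776 higher, 1452 lower), among them 353 of the 355 called, and 262 past it for the change in strain difference, among them 79 of the 104 moved. Of the flocculin, fragment, TIR and DAN genes, it put 6 that were not called past that threshold with extra MSS11. Its spread comes from replicates of other groups. The Σ1278b wild type used here differed 2-fold from the first set at 78 to 94 probe sets, against 0 to 7 between replicates. The 2 sets also appear to differ in vector marker, so that count is not of culture spread alone. These p-values may still understate the spread between separate cultures. Against the mean of the first Σ1278b wild type set, 212 moved in place of 104. Of 183 values recomputed, 155 kept their call or stayed within 1.5 times of the count reported, among them every count with centred or renormalized arrays, with 1 probe set per gene, without shared probe sets and without a-specific and pheromone-induced genes. No paired analysis was possible because every array compared carries replicate number 1, and no replicate could be left out. Single cultures, medium supplements, harvest phase and probe sequence limit every difference given.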
